A study of Mus musculus with 6 samples.

Results

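The 10 enzymes of de novo purine synthesis (Ppat, Gart, Pfas, Paics, Adsl, Atic, Impdh1, Impdh2, Gmps and Adss) were taken by symbol from a table of 52459 rows of read counts. All 10 were present and all 10 passed the filter on low counts that 14130 rows passed. RNA came from mouse liver tumours of the MYC-LAP-tTA genotype. In this model a tetracycline transactivator, expressed from a liver promoter, drives a MYC transgene in hepatocytes. In 3 samples MYC had been inactivated for 4 days (MYC-Off), and in 3 samples MYC was active (MYC-On); both groups carry the same transgenes. Age, sex, the agent that switched MYC off and the number of animals behind each group were not given in the sources used here. Accordingly, p-values measure spread among 6 samples, and that spread could be technical. The library names in the labels place all 6 on the same flow cell and lane.

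De novo synthesis builds the purine ring stepwise on phosphoribosyl pyrophosphate, with nitrogen from glutamine, glycine and aspartate and carbon from folate-bound formyl groups and carbon dioxide. The product is inosine monophosphate, from which one branch leads to adenine and another to guanine nucleotides. The liver is a major site of this synthesis, and dividing cells draw on it for DNA and RNA. MYC is a transcription factor that binds DNA as a partner of MAX, preferentially at the E-box CACGTG, and genes of nucleotide synthesis are among its known targets.

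The RefSeq promoter table (GRCm38.p6) held windows for 9 of the 10 enzymes, running from 250 bases before to 50 bases after each start site, and Pfas was not matched. The letters CACGTG, which read the same on both strands, occurred in the windows of 3 of the 9 genes, Atic, Paics and Impdh2. Of all 32851 windows 7.15% held these letters, and of the windows of tested genes 9.66%. The site of Atic began 7 bases before the RefSeq start site, that of Impdh2 110 bases before and that of Paics 203 bases before. All 3 printed stretches overlap annotated UTRs, of Atic, of Impdh2 and, for Paics, of its neighbour Ppat. The Impdh2 site lies within the gene as GENCODE bounds it. Each is shown with its neighbouring bases on the strand of its gene, the letters CACGTG in capitals, because these are the only CACGTG sites in the windows.
Atic, chr1:71557137-71557166, plus strand: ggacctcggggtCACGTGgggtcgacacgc
Impdh2, chr9:108560314-108560343, plus strand: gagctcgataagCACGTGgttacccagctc
Paics, chr5:76951087-76951116, plus strand: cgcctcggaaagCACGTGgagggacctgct

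The related letters CACGCG, or CGCGTG on the other strand, were found in 0 of the 9 genes, against 9.27% of all windows and 16.1% of those of tested genes. All 9 genes held GGGCGG or its reverse complement CCGCCC, the core of the GC box, in the 250 bases before a start site. These letters stood in 32.7% of all such windows and in 55.1% of those of tested genes. The 250 bases before the start sites of Adsl and Gart, which hold no CACGTG and no annotated UTR base, are shown with the GC box letters in capitals.
Adsl, chr15:80948240-80948489, plus strand: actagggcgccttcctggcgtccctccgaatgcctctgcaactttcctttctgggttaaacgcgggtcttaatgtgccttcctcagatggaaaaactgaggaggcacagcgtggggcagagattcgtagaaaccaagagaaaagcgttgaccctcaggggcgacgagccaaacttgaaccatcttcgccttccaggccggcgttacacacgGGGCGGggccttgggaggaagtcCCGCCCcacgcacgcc
Gart, chr16:91646973-91647222, minus strand: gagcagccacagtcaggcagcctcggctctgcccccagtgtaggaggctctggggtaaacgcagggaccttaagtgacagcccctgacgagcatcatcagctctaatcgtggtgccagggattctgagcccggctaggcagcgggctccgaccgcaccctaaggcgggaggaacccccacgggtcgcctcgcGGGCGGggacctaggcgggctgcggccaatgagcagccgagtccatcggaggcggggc
A match describes these letters only, and binding was not measured.

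Each library held 16292718 to 19265623 reads assigned to genes. Values are CPM (reads scaled to a common library size) after TMM scaling, a correction for differences in library composition, unless a level per length is named. Fold changes are log2 values of MYC-Off minus MYC-On from edgeR's quasi-likelihood test, with a standard error (SE) and a Benjamini-Hochberg adjusted p over all 14130 tested rows, called under 0.05. Myc stood at 74.7, 10.2 and 18.7 CPM in MYC-Off replicates 1, 2 and 3, against 778, 1016 and 852 CPM in MYC-On replicates 1, 2 and 3 (log2 fold change -4.67, SE 0.80, edgeR adjusted p = 0.0035). This row cannot separate transgene from endogenous reads. With this scaling the median log2 fold change of all tested genes was 0.18, and with library size only it was -0.57. Hepatocyte markers, 10 genes, summed to 110419 to 280654 CPM in MYC-Off and to 3697 to 7999 CPM in MYC-On, with 9 of 10 called higher. Markers of macrophages (10 genes; 1946 to 7624 CPM in MYC-Off and 533 to 1047 CPM in MYC-On, 9 of 10 called higher), T and NK cells (10 genes; 37.5 to 249 and 6.98 to 11.96 CPM, 7 of 8 tested), stellate cells and fibroblasts (8 genes; 974 to 2187 and 132 to 144 CPM, 7 of 7 tested), endothelium (8 genes; 295 to 590 and 50.7 to 58.6 CPM, 6 of 7 tested) and red cells (5 genes; 674 to 2284 and 30.9 to 89.4 CPM, 5 of 5) were also higher. Neutrophil markers (6 genes) summed to 95.4 to 149 CPM in MYC-Off and 2.16 to 3.10 CPM in MYC-On, with 5 of 5 tested higher. B cell markers (5 genes) summed to 8.05 to 104 CPM in MYC-Off and 2.33 to 4.53 CPM in MYC-On, with 2 of 2 tested higher. Biliary markers (5 genes) summed to 85.9 to 252 CPM in MYC-Off and 44.0 to 104 CPM in MYC-On, with 2 of 5 higher and 1 lower. Beside all these counts, 29.9% of all tested genes were called higher and 22.8% lower. The biliary counts are near these shares. No listed marker was at 0 reads in all libraries of a group. The part of these shifts in the results below was not tested, and in RNA of whole tissue fewer cells of a type and less RNA per cell cannot be told apart.

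All 10 enzymes fell on MYC inactivation, and in each of them the highest MYC-Off library lay below the lowest MYC-On library. Of all tested genes 22.8% were called lower, 29.9% higher and 52.7% in either direction, and 29.8% had all 3 MYC-Off libraries below all 3 MYC-On libraries. The median log2 fold change of the 10 enzymes was -2.66. Summed over the 10 genes, the levels were 433, 496 and 344 CPM in MYC-Off replicates 1, 2 and 3, against 1676, 1935 and 1628 CPM in MYC-On replicates 1, 2 and 3. As a share of all reads before scaling, the 10 genes took 0.0233% to 0.043% in MYC-Off and 0.203% to 0.263% in MYC-On. Against a minimum change of 2-fold (glmTreat in edgeR) 9 of the 10 were called lower, all but Paics, and 10.1% of all tested genes were.

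**Figure D1:**
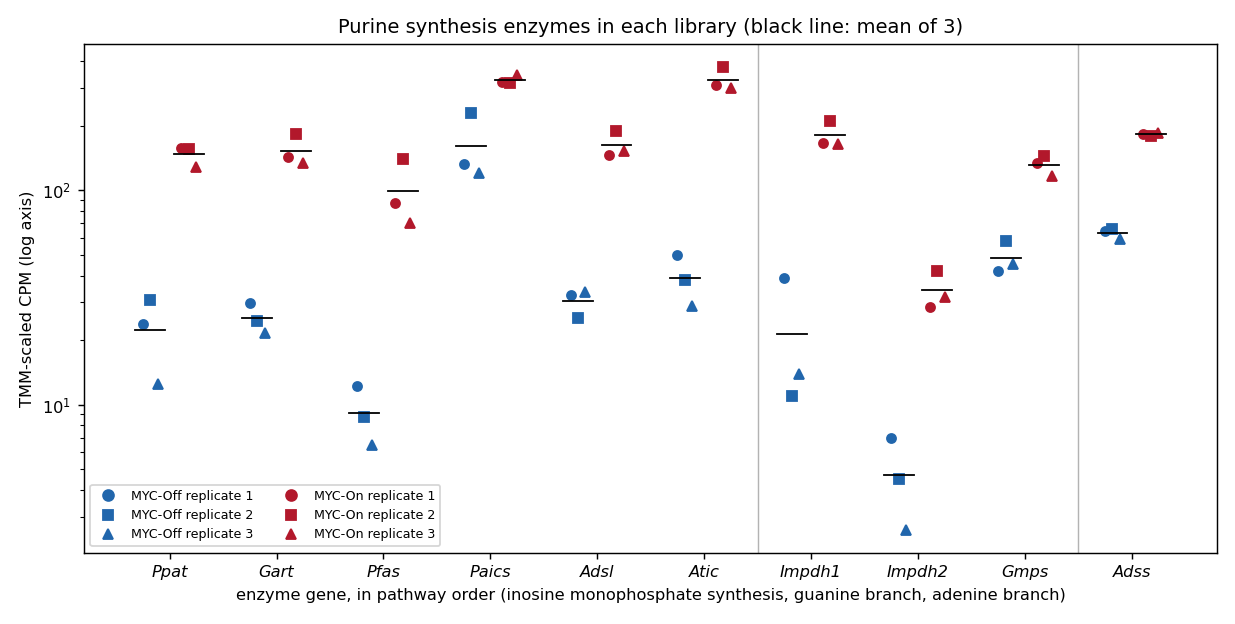
TMM-scaled CPM (log axis) of each enzyme gene in the 3 MYC-Off libraries (blue, left of each pair) and the 3 MYC-On libraries (red), with a black line at each mean; grey lines separate inosine monophosphate synthesis, the guanine branch and the adenine branch. In every gene the blue points lie below the red points, with the smallest gap in Paics, where the lowest MYC-On library was 1.38 times the highest MYC-Off library, and the largest in Atic, at 6.004 times.

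Ppat (amidophosphoribosyltransferase; chr5:76913249-76951578, minus strand, mm10) catalyses the committed first step, which purine nucleotides inhibit. It had 23.9, 30.8 and 12.4 CPM in MYC-Off replicates 1, 2 and 3, against 157, 156 and 129 CPM in MYC-On replicates 1, 2 and 3. The MYC-Off libraries were spread over a wider relative range than the MYC-On libraries, with replicate 3 lowest in both groups. The log2 fold change was -2.72 (SE 0.36, edgeR adjusted p = 0.0015).

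Gart (chr16:91621186-91646952, minus strand) is a trifunctional enzyme that acts at the second, the third and the fifth step. It stood at 29.8, 24.4 and 21.6 CPM in MYC-Off and at 142, 182 and 134 CPM in MYC-On replicates 1, 2 and 3, a log2 fold change of -2.59 (SE 0.24, edgeR adjusted p = 0.000839). Its profile over the 6 libraries was the closest of the 10 to their mean profile. Exons of Gart share 1014 bases, 19.7% of its exon length, with the antisense gene Gm15964, and without a stated strand setting reads there cannot be assigned to one strand.

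Pfas (chr11:68985697-69008460, minus strand), which adds nitrogen from glutamine at the fourth step, had the lowest log2 fold change of the 10, at -3.43 (SE 0.38, edgeR adjusted p = 0.000979). Its levels were 12.2, 8.78 and 6.44 CPM in MYC-Off, against 87.0, 140 and 70.3 CPM in MYC-On replicates 1, 2 and 3. Of all tested genes 1.78% had a lower value. MYC-On replicate 2 stood above the other MYC-On libraries, as it did for 7 of the 10 enzymes.

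Paics (chr5:76951307-76967509, plus strand) is a bifunctional enzyme that carboxylates the ring and then couples aspartate to it. It had 133, 230 and 121 CPM in MYC-Off replicates 1, 2 and 3, against 321, 318 and 346 CPM in MYC-On replicates 1, 2 and 3. These groups did not overlap, but MYC-Off replicate 2 came near the MYC-On range. The log2 fold change was -1.03 (SE 0.32, edgeR adjusted p = 0.0297), the smallest decrease of the 10, and 20.2% of all tested genes had a lower value. The call was lost without MYC-On replicate 1, 2 or 3 (edgeR adjusted p = 0.0777, 0.0698 and 0.0801). In these fits the log2 fold change of Paics was -1.10, -1.10 and -1.04. They called 5179, 5123 and 5393 of all tested genes, against 7443 with no library left out.

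Adsl (chr15:80948490-80970946, plus strand) releases fumarate at a late step of ring synthesis and again in the adenine branch. It had 32.4, 25.3 and 33.5 CPM in MYC-Off and 146, 188 and 153 CPM in MYC-On replicates 1, 2 and 3 (log2 fold change -2.42, SE 0.23, edgeR adjusted p = 0.000849). Unlike most of the other enzymes, Adsl was not lowest in MYC-Off replicate 3.

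Atic (chr1:71557150-71579631, plus strand) is bifunctional: it transfers the last formyl group and closes the ring to inosine monophosphate. Its levels were 49.96, 38.0 and 28.8 CPM in MYC-Off, against 310, 376 and 300 CPM in MYC-On replicates 1, 2 and 3. The lowest MYC-On library was 6.004 times the highest MYC-Off library, the widest gap of the 10. The log2 fold change was -3.08 (SE 0.30, edgeR adjusted p = 0.00085).

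In the guanine branch, inosine monophosphate dehydrogenase, the rate-limiting enzyme, exists as a pair of isozymes from different genes. Impdh1 (chr6:29200434-29216364, minus strand) had 38.8, 11.0 and 13.9 CPM in MYC-Off replicates 1, 2 and 3, against 167, 210 and 165 CPM in MYC-On replicates 1, 2 and 3. Its MYC-Off libraries had the largest relative spread of the 10 enzymes, with replicate 1 well above the others. The log2 fold change was -3.08 (SE 0.51, edgeR adjusted p = 0.00301), and it was -4.00 for Impdh1 without MYC-Off replicate 1. Impdh2 (chr9:108560286-108565584, plus strand) had 6.96, 4.51 and 2.61 CPM in MYC-Off, from 127, 59 and 34 reads, against 28.7, 42.1 and 31.7 CPM in MYC-On, from 645, 1030 and 644 reads. Its log2 fold change was -2.85 (SE 0.40, edgeR adjusted p = 0.00183). The level of Impdh2 is uncertain, because 39.3% of the 50-base stretches in its GENCODE transcripts also occur in the processed pseudogene Impdh2-ps, against 0% of those of Impdh1. Impdh2-ps itself was listed with 12, 7 and 5 reads in MYC-Off and 88, 74 and 72 reads in MYC-On.

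Per exon length, Impdh2 made up 16.1%, 30.5% and 16.7% of the reads of both isozymes in MYC-Off replicates 1, 2 and 3, and 15.5%, 17.7% and 17.1% in MYC-On replicates 1, 2 and 3. The groups overlapped, and the means of 21.1% ± 8.13 and 16.8% ± 1.115 (SD, n = 3) were not distinguishable (difference 4.35 percentage points, two-sided exact permutation test, p = 0.7, with 0.1 the smallest that 3 against 3 allows). Without MYC-Off replicate 2 the difference was -0.34 percentage points. How many Impdh2 reads were lost to the pseudogene was not tested.

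Gmps (chr3:63976106-64022579, plus strand) completes the guanine branch with nitrogen from glutamine. It had 41.8, 58.1 and 45.3 CPM in MYC-Off, against 135, 144 and 116 CPM in MYC-On replicates 1, 2 and 3, a log2 fold change of -1.44 (SE 0.22, edgeR adjusted p = 0.0024). Adss (chr1:177762962-177796511, minus strand) opens the adenine branch by joining aspartate to inosine monophosphate. Its levels were 64.5, 66.0 and 59.1 CPM in MYC-Off and 183, 179 and 184 CPM in MYC-On replicates 1, 2 and 3. The coefficients of variation of Adss, 5.75% in MYC-Off and 1.46% in MYC-On, were the smallest of the 10. Its log2 fold change was -1.53 (SE 0.20, edgeR adjusted p = 0.00144). The enzymes with the smallest decreases were thus Paics, Gmps and Adss, at 49.1%, 36.8% and 34.7% of their MYC-On means, while the other 7 stood between 9.24% and 18.7%.

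**Figure D2:**
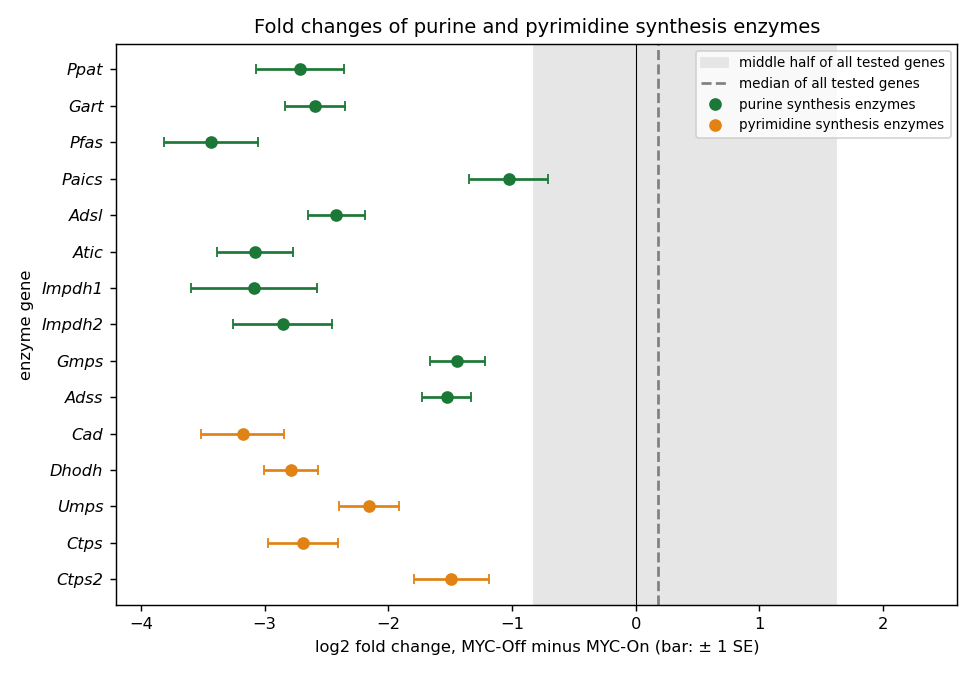
Log2 fold change of MYC-Off minus MYC-On for each purine enzyme (green) and each pyrimidine enzyme (orange), with bars of 1 SE; the grey band spans the middle of all 14130 tested genes, from the lower quartile (-0.82) to the upper quartile (1.62), and the dashed line is their median (0.18). The purine enzymes run from Pfas at -3.43 to Paics at -1.03, all left of the band's edge.

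The MYC-Off libraries differed in how low the enzymes stood. The median over the 10 enzymes, relative to the MYC-On mean, was -2.29, -2.65 and -3.15 on the log2 scale in MYC-Off replicates 1, 2 and 3. In replicate 1, where Myc was highest of the MYC-Off libraries, 5 enzymes had their highest MYC-Off level (Gart, Pfas, Atic, Impdh1 and Impdh2). In replicate 3, 7 enzymes had their lowest MYC-Off level. Myc was lowest in replicate 2, where Ppat, Paics, Gmps and Adss had their highest MYC-Off level. From high to low the replicates ran 1, 3 and 2 by Myc, and 1, 2 and 3 by the median of the enzymes. The part of the Myc level in these differences was not tested. The summed level of 12 cell division genes was 267, 140 and 124 CPM in MYC-Off replicates 1, 2 and 3, against 1820 to 2264 CPM in MYC-On. All 12 were called lower, beside 22.8% of all tested genes. Mki67, a marker of dividing cells, had the smallest adjusted p among the 12 (-3.08, edgeR adjusted p = 0.00085). The part of cell division in the fall of the enzymes was not tested.

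Per exon length the order of the enzymes differed between the groups. Exon length is the merged length of all annotated exons of a gene over its transcripts, so the order of genes depends on this divisor. In MYC-On, Paics and Atic averaged 328 and 329 CPM, and their exon lengths were 3.139 and 7.985 kilobases. The level of Impdh2 is uncertain, as stated above. Paics had the highest level in both, 51.3 CPM per kilobase in MYC-Off and 105 CPM per kilobase in MYC-On, with no overlap with the next gene in either group. In MYC-Off, Adss followed at 13.95 CPM per kilobase. Impdh1, Gmps, Adsl, Ppat, Gart and Atic stood next between 4.87 and 6.45 CPM per kilobase, with overlapping libraries between neighbours, and Impdh2 and Pfas were lowest at 1.53 and 1.15 CPM per kilobase. In MYC-On the order after Paics was Impdh1 (54.8), Atic (41.2), Adss (40.2), Ppat (33.2), Gart (29.7), Adsl (28.8), Gmps (16.2), Pfas (12.5) and Impdh2 (11.1 CPM per kilobase). Libraries of neighbouring genes overlapped for Atic and Adss, Ppat and Gart, Gart and Adsl, Gmps and Pfas, and Pfas and Impdh2. Atic thus stood at place 8 in MYC-Off and 3 in MYC-On, and Gmps at place 4 in MYC-Off and 8 in MYC-On.

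**Figure D3:**
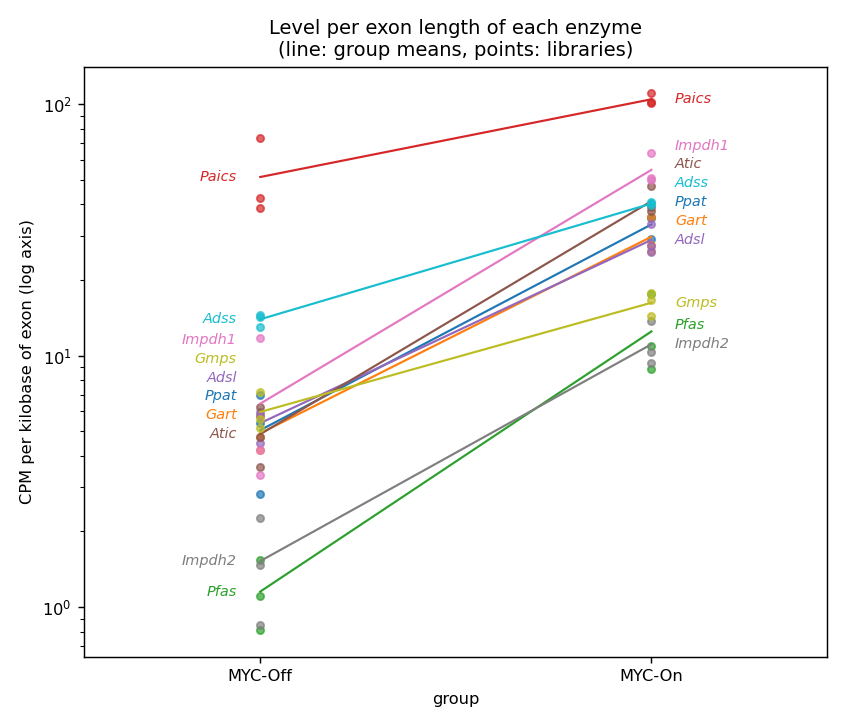
CPM per kilobase of exon (log axis) of each enzyme in MYC-Off (left) and MYC-On (right), with points for libraries and lines joining the group means. Paics lies above the other enzymes in both groups, at 51.3 in MYC-Off and 105 in MYC-On, and the lines of Paics, Adss and Gmps are flatter than those of the other 7.

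Ppat and Paics are neighbours on chromosome 5 on opposite strands. Their RefSeq start sites lie 276 bases apart, each within the other gene, so that their first bases overlap, and GENCODE exons of both share 272 bases. The ratio of Paics to Ppat reads per exon length was 7.85, 10.5 and 13.7 in MYC-Off replicates 1, 2 and 3, against 2.88, 2.88 and 3.79 in MYC-On replicates 1, 2 and 3. The groups did not overlap, with means of 10.7 ± 2.92 and 3.18 ± 0.53 (SD, n = 3; two-sided exact permutation test, p = 0.1, the smallest possible). This ratio was chosen after the values of both genes were seen. Its direction follows from the larger fall of Ppat and is not separate evidence. The shared bases make up 6.15% of the exon length of Ppat and 8.67% of that of Paics. As a share of the summed levels per length of all 10 enzymes, Paics took 42.1%, 60.1% and 48.4% in MYC-Off, against 28.5%, 25.01% and 31.1% in MYC-On replicates 1, 2 and 3.

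Adssl1, which encodes the muscle-type isozyme of Adss, moved the other way. It had 17.5, 25.5 and 32.8 CPM in MYC-Off, against 8.36, 5.76 and 12.7 CPM in MYC-On replicates 1, 2 and 3 (log2 fold change 1.499, SE 0.39, edgeR adjusted p = 0.0151). The call of Adssl1 was lost without MYC-On replicate 1 or 2 (edgeR adjusted p = 0.0645 and 0.0583) and with library size only (log2 fold change 0.72, edgeR adjusted p = 0.12). Per exon length Adssl1 made up 37.0%, 45.6% and 54.6% of the reads of both isozymes in MYC-Off, and 9.01%, 6.51% and 13.0% in MYC-On replicates 1, 2 and 3. The groups did not overlap (difference of means 36.2 percentage points, n = 3 each, two-sided exact permutation test, p = 0.1, the smallest possible). This share was added after the data were seen. Its direction follows from the fall of Adss and the rise of Adssl1 and is not separate evidence.

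**Figure D4:**
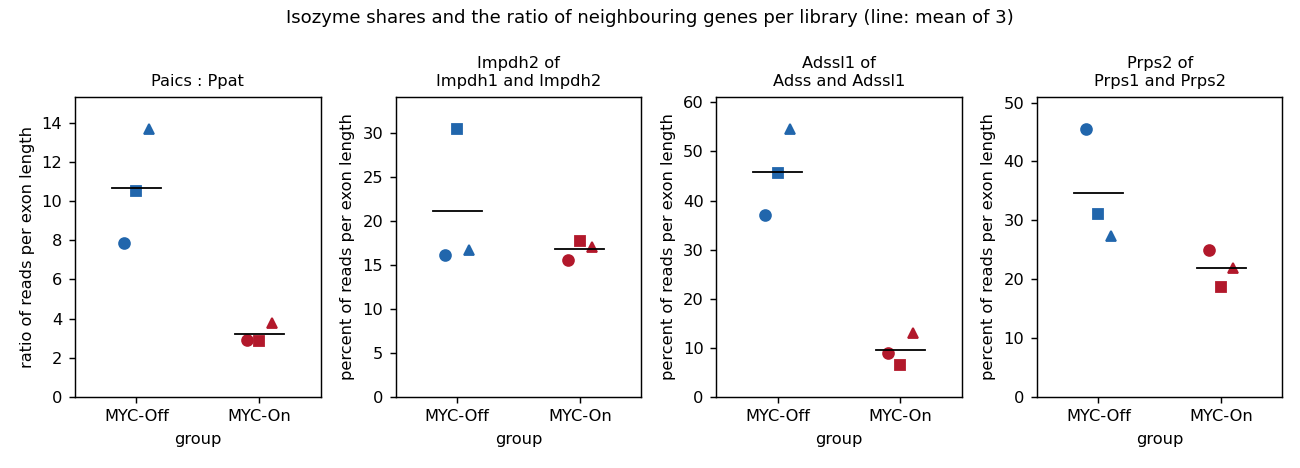
Ratio of Paics to Ppat and shares of Impdh2, Adssl1 and Prps2 among the isozyme pairs, all from reads per exon length, for each library of MYC-Off (blue) and MYC-On (red), with a line at the mean of 3. The ratio of Paics to Ppat and the shares of Adssl1 and Prps2 are higher in every MYC-Off library than in any MYC-On library, whereas the share of Impdh2 overlaps between groups.

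The genes around the pathway were less uniform. In 6 lists for its suppliers, salvage, kinases and breakdown, 26 of 62 tested genes fell, 13 rose and 23 were not called, with a median log2 fold change of -0.70, beside 22.8% lower and 29.9% higher among all tested genes and their median of 0.18. For phosphoribosyl pyrophosphate and its pentose precursors, 4 of 11 genes fell and 0 rose (median -0.80). Prps1, which makes phosphoribosyl pyrophosphate, stood at 22.7, 32.5 and 21.2 CPM in MYC-Off, against 82.3, 104 and 76.3 CPM in MYC-On replicates 1, 2 and 3 (log2 fold change -1.78, SE 0.26, edgeR adjusted p = 0.0019). Prps1 has a close copy, Prps1l3, which holds 9.93% of its 50-base stretches. Its isozyme Prps2 had 36.9, 28.5 and 15.4 CPM in MYC-Off and 53.3, 46.1 and 41.6 CPM in MYC-On (log2 fold change -0.80, SE 0.33, edgeR adjusted p = 0.0776) and was not called, although it was without MYC-Off replicate 1, with no filter on low counts and with library size only. Per exon length Prps2 made up 45.5%, 31.1% and 27.3% of the reads of Prps1 and Prps2 in MYC-Off, and 24.97%, 18.6% and 21.9% in MYC-On (two-sided exact permutation test, p = 0.1, the smallest possible, n = 3 each). The Prps2 share was added after the data were seen. Its direction follows from the larger fall of Prps1 and is not separate evidence. The pentose phosphate enzyme transketolase (Tkt) changed by -1.19 (SE 0.29). Of the 11 genes of this list, 2 were called lower without MYC-Off replicate 2 or any one MYC-On replicate, and 9 with library size only. The share of all tested genes called lower was 21.2% without MYC-Off replicate 2 and 15.7% to 16.9% without one MYC-On replicate. With library size only that share was 37.6%.

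For serine, glycine and folate one-carbon enzymes, which supply glycine and formyl groups, 8 of 14 genes fell and 2 rose (median -1.18). Of all tested genes 22.8% were called lower and 29.9% higher. Phgdh, the first enzyme of serine synthesis, averaged 9.85 ± 6.04 CPM in MYC-Off and 158 ± 15.1 CPM in MYC-On (SD, n = 3), a log2 fold change of -3.99, and -4.77 for Phgdh without MYC-Off replicate 1. The mitochondrial folate enzymes Mthfd1l and Mthfd2 changed by -2.32 and -2.21, and Mthfd1l by -2.94 without MYC-Off replicate 3. Aldh1l1, which removes formyl groups from folate and marks mature hepatocytes, rose to 98.3, 1099 and 559 CPM in MYC-Off, against 9.20, 1.80 and 4.97 CPM in MYC-On replicates 1, 2 and 3 (log2 fold change 6.78, SE 1.10, edgeR adjusted p = 0.00293). For Aldh1l1 the log2 fold change was 5.81 without MYC-Off replicate 2 and 7.39 without MYC-On replicate 1. Mthfd2l, an isozyme of Mthfd2, changed by 2.81. The number of one-carbon genes called lower was 5 without MYC-On replicate 1, beside 15.7% of all tested genes in that fit.

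Among 7 genes for glutamine and aspartate, 3 fell and 2 rose (median -0.26), beside 22.8% of all tested genes called lower. The count of rises is near the 29.9% of all tested genes called higher. Asparagine synthetase (Asns, -1.81, SE 0.29) and the glutamine transporter Slc1a5 (-3.17, SE 0.54) were among those that fell. Glutamine synthetase (Glul, 1.14, SE 0.32) and liver-type glutaminase Gls2 (1.51, SE 0.54) rose, but both calls were lost without any one MYC-On replicate, without MYC-Off replicate 2 and with library size only. Without MYC-Off replicate 1 Slc1a5 stood at -4.03. Without MYC-Off replicate 2, 2 of these 7 genes fell, and Gls2 stood at 0.92.

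Kinases that turn monophosphates into triphosphates included 6 of 10 tested genes that fell and 0 that rose (median -0.89). The nucleoside diphosphate kinases Nme4 (-3.40, SE 0.32) and Nme1 (-1.75, SE 0.22) had the smallest adjusted p, and 3 or 4 of the genes fell without one MYC-On replicate. Purine salvage genes went both ways, with 4 of 8 lower and 3 higher (median 0.07). Beside both lists, 22.8% of all tested genes were called lower and 29.9% higher, with a median of 0.18. Mtap, which recovers adenine from methylthioadenosine, averaged 27.9 ± 2.59 CPM in MYC-Off and 128 ± 19.1 CPM in MYC-On (SD, n = 3; log2 fold change -2.20, SE 0.22, edgeR adjusted p = 0.00085). Hprt, which recovers hypoxanthine and guanine, changed by -0.69 (SE 0.20), and its call was lost without MYC-On replicate 1 or 3. Deoxyguanosine kinase (Dguok, 1.37, SE 0.28) and purine nucleoside phosphorylase (Pnp, 0.83, SE 0.22) rose. The call of Pnp was lost without any one MYC-On replicate, and its level is uncertain because of its close copy Pnp2. With library size only 0 of the 8 salvage genes were called higher. Without one MYC-On replicate, 2 or 3 salvage genes were called lower and 1 was called higher. In those fits 15.7% to 16.9% of all tested genes were called lower.

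Of 12 tested genes of purine breakdown and interconversion, 6 rose, 1 fell (Ampd2, -0.998, SE 0.28) and 5 were not called, with a median log2 fold change of 1.88, beside 29.9% called higher among all tested genes. Xanthine dehydrogenase (Xdh), which makes uric acid, had 113, 154 and 41.7 CPM in MYC-Off, against 3.96, 6.98 and 4.82 CPM in MYC-On replicates 1, 2 and 3 (log2 fold change 4.29, SE 0.53, edgeR adjusted p = 0.0013). Urad, which acts after uric acid oxidation, had 10.4, 42.4 and 31.5 CPM in MYC-Off, against 0.356, 0.123 and 0.0492 CPM in MYC-On, from 8, 3 and 1 reads (log2 fold change 7.25, SE 0.83), and stood at 8.15 without MYC-On replicate 1. Guanine deaminase (Gda) averaged 50.5 ± 37.1 CPM in MYC-Off and 1.69 ± 0.71 CPM in MYC-On (SD, n = 3; log2 fold change 4.90, SE 0.64), and stood at 4.07 without MYC-Off replicate 2. The call of Ampd2 was lost without MYC-On replicate 2 (edgeR adjusted p = 0.0612). The summed hepatocyte markers named above were 110419, 183770 and 280654 CPM in MYC-Off replicates 1, 2 and 3, above every MYC-On library. Their part in the rise of the breakdown genes was not tested.

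**Figure D5:**
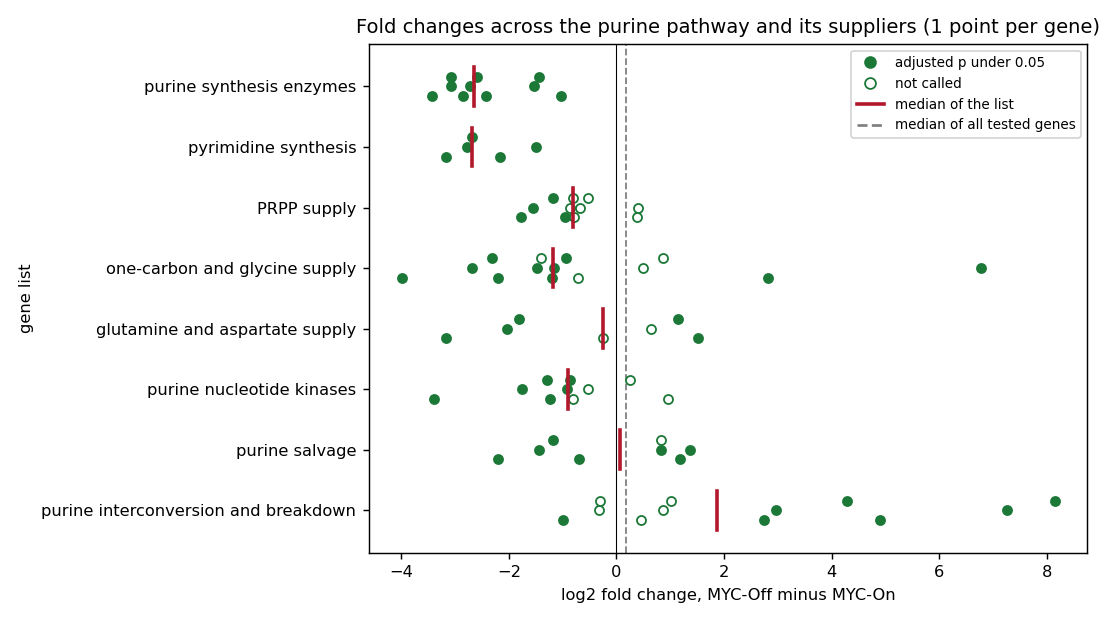
Log2 fold change of MYC-Off minus MYC-On for each tested gene of the purine synthesis enzymes, the pyrimidine synthesis enzymes and the 6 surrounding lists; filled points passed an adjusted p of 0.05, red bars are list medians and the dashed line is the median of all tested genes. The synthesis lists lie left of 0 with medians of -2.66 and -2.69, and breakdown genes reach furthest to the right.

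The 5 enzymes of de novo pyrimidine synthesis all fell as well, with a median log2 fold change of -2.69 beside -2.66 for the purine enzymes. Of all tested genes 22.8% were called lower. Dhodh, the mitochondrial enzyme of the pathway, changed by -2.78 (SE 0.22), Cad, which carries its first steps, by -3.18 (SE 0.33), and Ctps, which makes cytidine triphosphate, by -2.69 (SE 0.29). The difference between purine and pyrimidine enzymes was not tested. Among all other tested genes, the 5 whose centred log2 CPM over the 6 libraries lay closest to the mean profile of the 10 enzymes were Wdr12, Jade3, Chchd4, Sdad1 and Wdr75, at Euclidean distances of 0.09, 0.11, 0.13, 0.13 and 0.17. Their log2 fold changes were -2.42, -2.51, -2.49, -2.38 and -2.35. The 10 enzymes themselves lay at distances from 0.24 (Gart) to 1.86 (Paics).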

How the data were processed

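The authors deposited whole-number read counts per gene symbol, not normalized; per the submitters' processing notes Trimmomatic, STAR, Picard, featureCounts and DESeq2 were used with mm10. Their versions, the annotation, the strand setting and how multiply matching reads were counted were not given in the sources used here, so genes with near copies or antisense overlap are uncertain. Total RNA was extracted from frozen tumours, per the labels' protocols. Date-like (26) or repeated (4) symbols were kept under row numbers. Columns were mapped to samples by the library names in the labels. Coordinates and exon lengths came from GENCODE mouse release 21 on mm10, which matched 91.7% of symbols.

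MYC-Off was compared with MYC-On in R 4.3.3 by edgeR 4.0.16, after filterByExpr (at least 10 reads, total 15), using TMM, a robust quasi-likelihood test and Benjamini-Hochberg adjusted p-values, called under 0.05. SE came from the fold change and F. Gene profiles used log2 CPM with a prior count of 2. Isozyme shares were tested by exact permutation. The members, lists and tests were chosen with earlier results of these data known. Genes named are all 10 enzymes, Myc, in each list the 3 with the smallest adjusted p in each direction, partner isozymes and, for cell division, the gene with the smallest adjusted p. Marker genes are given as sums. The values of 1 list gene are not reported here.

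The fit was tested on simulated counts. Every pair of libraries within a group differed beyond sampling noise, with a chi-square of at least 32.1 for each degree of freedom. Alternatives used DESeq2 1.42.0 and limma 3.58.1, other scalings, filters and thresholds, and left out each replicate. Figures were drawn with matplotlib 3.10.9.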

Additional observations from a re-analysis of the deposited data

How the results depend on the processing

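Over 17 alternatives each enzyme kept its direction, and 164 of 170 enzyme results kept their call; the other 6 were all of Paics: with a replicate block (-1.09, adjusted p = 0.0632), an adjusted p of 0.01 (-1.03), glmTreat against 2-fold (-1.03, adjusted p = 0.453) and without each MYC-On replicate (-1.10, -1.10 and -1.04). The number of enzymes called lower ran from 9 to 10 and was 0 higher throughout. Their median was -3.37 with library size only and otherwise between -2.89 and -2.57, while the median of all genes was -0.57 with library size only and 0.18 with TMM. Called genes numbered 7443 in edgeR, 4257 at an adjusted p of 0.01 and 4049 with glmTreat against 2-fold, where 25 and 22 of 68 genes of the surrounding lists, pyrimidine enzymes and Adssl1 were called, against 45. The share of calls that were higher was 56.7% under TMM, and scaling by library size only made it 32.2% (2526 higher, 5309 lower). Without one replicate, 5123 to 7808 genes and 30 to 46 of the list genes were called. The difference in the Impdh2 share ran from -0.34 to 6.85 percentage points without one replicate. The difference in the Adssl1 share was 23.7 points without division by length, against 36.2. The shares of Adssl1 and Prps2 and the ratio of Paics to Ppat were added after the data were seen.

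Same-numbered libraries did not deviate together (r = -0.26, -0.17 and 0.04), so the numbers were not taken as pairs; the replicate block called 5763 genes and 9 of the 10 enzymes. Impdh2 rests on 34 to 127 reads in the MYC-Off libraries.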
